A study of Mus musculus with 17 samples.

Results

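Isolated H3K27ac regions are stretches of acetylated chromatin that stand alone in the deposited list of regions common to both genotypes. They were chosen by position only: a region on chromosomes 1 to 19 was isolated when its edges lay more than 10 kb from every other region of that list, in genome build mm9. Of 167381 autosomal common regions, 23214 were isolated (13.9%, 95% interval 13.7 to 14.0), and they held 12.2% of the acetylated bases. The other 144167 regions, with a neighbour within 10 kb, are called clustered here. The whole list, with the sex chromosomes, held 170137 regions.

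Acetylation of histone H3 at lysine 27 marks active promoters and enhancers. Enhancers can lie in groups, with several acetylated stretches side by side, or alone. The SWI/SNF complex slides and evicts nucleosomes with its ATPase BRG1, often at promoters and enhancers. In male germ cells it is needed for meiosis.

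The H3K27ac list comes from spermatogenic cells of mice on a mixed background at postnatal day 12 (P12). Brg1WT and Brg1cKO testes gave 2 libraries each, with 1 shared input, and Brg1cKO is a conditional knockout made with Mvh-cre, which acts in germ cells. BRG1 was mapped in the same kind of cells of wild type CD1 mice, at P12 and at P18 (day 18). Each of these ages had 2 ChIP libraries and 2 inputs. Every chromatin sample was cut with micrococcal nuclease. Each list stands for its libraries together, so no value has an error between replicates, and read depth is not known. The lists hold regions and no gene levels, so neither the cell type nor the loss of BRG1 was checked against markers. All intervals below are 95% intervals that cover counting error only, and regions are not replicates.

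Isolation is a property of the deposited list, and that list holds only some of the regions that were numbered. The numbers in the names run along each chromosome with gaps. Among 23189 isolated regions with a neighbour on both sides, the median count of numbers missing up to those neighbours was 5, and the highest was 37. Only 1131 isolated regions (4.87%) had no number missing on either side. Among clustered regions 21.7% had none missing, and the median was 2. Per kb of the gap on the left side, 0.0475 numbers were missing beside members and 0.188 beside clustered regions. The rule selects members by the gap that this rate is divided by, so the rate allows no conclusion. The sources used here do not say what the missing numbers stood for. A member therefore had no deposited neighbour within 10 kb, and whether other regions had been called there was not tested.

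The threshold fell in a continuous range of gaps. The first member inside it, at chr10:19975293-19975471, lay 10001 bp from its nearest neighbour and 10.044 kb from the one on the other side. The next ones, at chr17:7152340-7152582 and at chr5:104501582-104502165, lay 10001 and 10002 bp away. Just outside, the regions at chr5:15505951-15506394 and chr5:15516395-15516618 lay 10000 bp from each other and so were clustered. A region at chr6:140229668-140230078, also 10000 bp from its neighbour, was the third.

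Most isolated regions were well past the threshold. The median gap to the nearer neighbour was 18.5 kb, and the middle 50% ran from 13.0 to 32.5 kb. On the farther side the median was 42.1 kb, against 6.20 kb for clustered regions, whose nearer gap had a median of 1.37 kb. Of the members, 10648 (45.9%) had a nearer gap of more than 20 kb, 3212 (13.8%) of more than 50 kb and 1092 (4.70%) of more than 100 kb. Only 20 stood more than 500 kb from any other common region.

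The most solitary of all was at chr3:76863207-76863587, 381 bp wide, with 1051 kb of empty list on its left and 1127 kb on its right. The next ones were at chr8:53537374-53537598, at chr17:92346649-92346897, at chr8:57989504-57989827 and at chr17:19081392-19081730. Their nearer gaps were between 672 and 727 kb. These 5 regions were 225 to 381 bp wide, 4 of them above the median member of 245 bp, and none carried a BRG1 peak at either age. The nearest P12 peak was between 783 and 1102 kb away. Between 3 and 11 numbers were missing on each side of them.

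Many isolated regions were direct neighbours of each other. In the order of the list, the 23214 members fell into 9523 unbroken runs, and 79.5% of members had another isolated region as a direct neighbour. Runs of 10 or more held 3556 members (15.3%). The longest, 32 regions each, spanned 5.30 Mb at chr1:146253115-151549764 and 4.73 Mb at chr14:94211243-98943403. In these runs 0 and 1 members overlapped a P12 BRG1 peak. Members lay where acetylation was sparse: within 500 kb on either side of a member the median number of other common regions was 54 (10th to 90th percentile 12 to 132), against 133 (55 to 249) for a clustered region. The rule on gaps favours both such places and such runs, since a direct neighbour of a member already has 1 gap of more than 10 kb.

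The density of isolated regions varied little between chromosomes, while that of clustered regions varied much. Isolated regions numbered between 8.02 per Mb on chromosome 7 and 11.1 per Mb on chromosome 13, a range of 1.38 times. Clustered regions ranged from 40.3 per Mb on chromosome 3 to 102 per Mb on chromosome 11, a range of 2.55 times. The isolated share was lowest on chromosome 11, at 8.07%, and highest on chromosome 3, at 20.3%. Across the 19 chromosomes the densities of the 2 kinds were inversely related (Pearson's r = -0.55, Spearman's rho = -0.62). This is a description of chromosomes that share the same libraries, and the rule itself ties the 2 densities together.

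**Figure D1:**
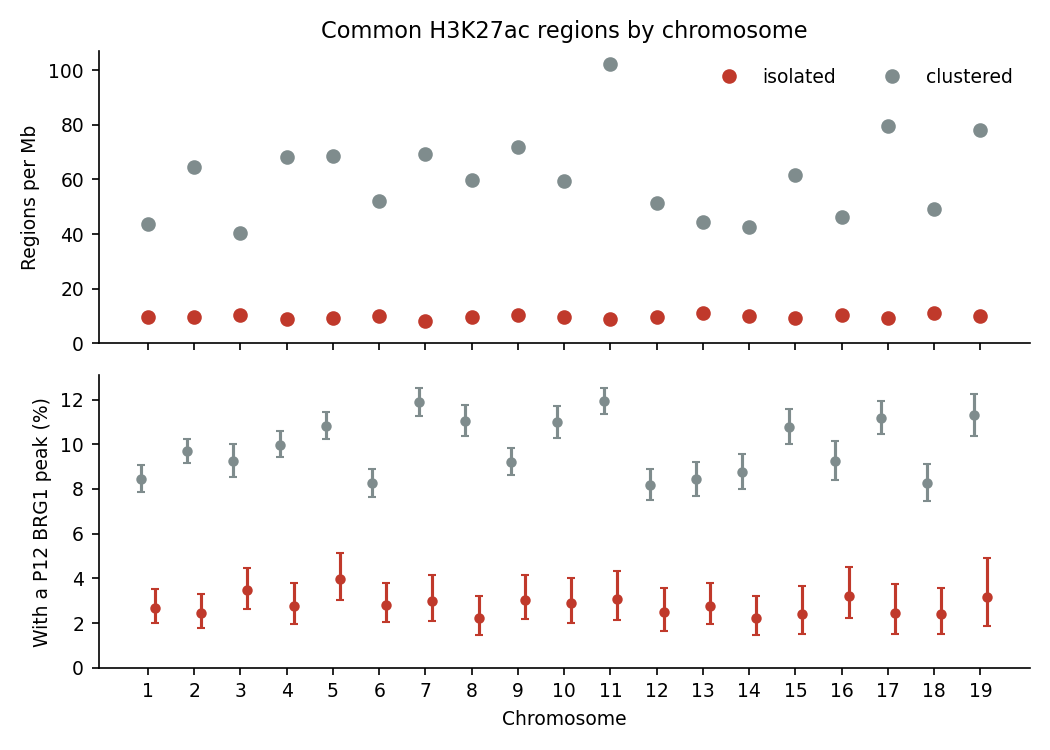
Isolated (red) and clustered (grey) common H3K27ac regions on each autosome. The upper panel gives regions per Mb of the span from the first to the last region, and the lower panel the percentage that overlapped a P12 BRG1 peak, with exact 95% intervals as bars; isolated regions stayed between 8.02 and 11.1 per Mb, and their BRG1 share lay below that of clustered regions on all 19 chromosomes.

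Isolated regions were narrower than clustered ones and more uniform in width. Their median width was 245 bp (244 to 246), against 278 bp (277 to 278). The middle 50% ran from 213 to 310 bp in isolated and from 222 to 382 bp in clustered regions. Widths from 200 to just under 300 bp made up 60.3% of isolated and 45.6% of clustered regions. At the upper end, 1228 isolated regions (5.29%) were 500 bp or wider, against 12.3% of clustered regions. Very small pieces were also rarer, with 1.21% against 2.70% under 100 bp. Width and gap come from the same calls, so this comparison has no test.

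**Figure D2:**
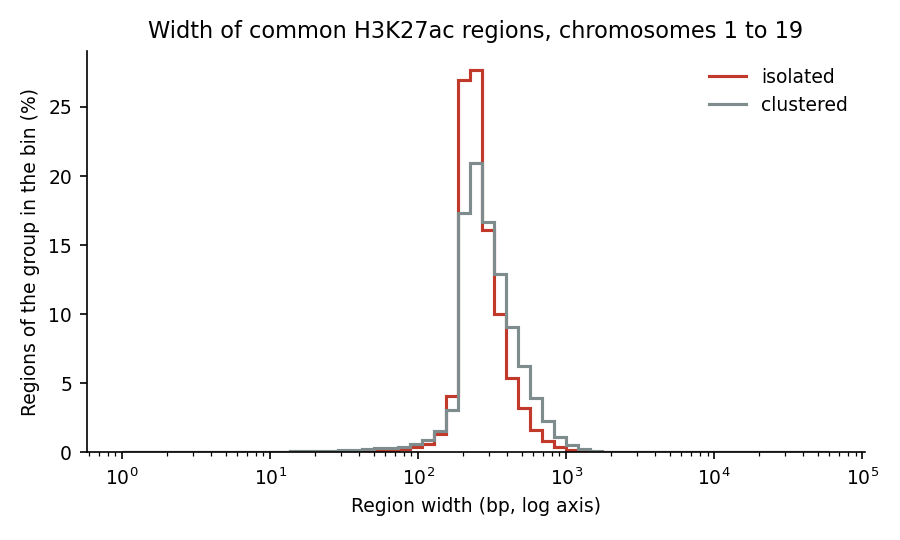
Width of isolated (red) and clustered (grey) common H3K27ac regions, as the percentage of each group per bin on a logarithmic width axis. Both groups are highest in the bin from 223 to 269 bp (medians 245 and 278 bp), and the grey curve reaches further towards wide regions (90th percentile 534 bp, against 409.7 bp in red).

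Another difference lay in the names. Of the clustered regions, 15972 (11.1%) shared their name with another region, as pieces of 1 numbered region do. No isolated region did. This follows from the rule, because every region with a repeated name lay within 2639 bp of another region.

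The widest member stood far apart from the rest. It covered 50609 bp at chr9:13167320-13217928, with gaps of 65.5 and 24.9 kb to its neighbours, and was wider than any clustered region (39621 bp). The second widest measured 2263 bp, at chr2:51408404-51410666. The others of the 5 widest were at chr9:14938799-14940880 (2082 bp), at chr11:48791386-48793319 (1934 bp) and at chr13:93423313-93425188 (1876 bp). None of these 5 had a BRG1 peak of either age within 10 kb, and the nearest P12 peaks lay 41.7 to 380 kb away. They are therefore also the 5 widest members without BRG1 nearby. Of all 74 members of 1000 bp or more, 22 overlapped a P12 peak (29.7%, 19.7 to 41.5), against 48.0% (45.3 to 50.6) of the 1386 clustered regions of that width.

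The first comparison asked whether isolated regions were sites of BRG1 binding. BRG1 came from other libraries than those behind the rule. At P12, 657 of the 23214 isolated regions overlapped a BRG1 peak by at least 1 bp (2.83%, 2.62 to 3.05). Of all autosomal common regions, 9.06% did, and of the clustered ones 10.1% (9.90 to 10.2). Clustered regions can share a peak, and each of them then counts. The 14502 clustered regions with a P12 peak met 10132 peaks, and the 657 isolated ones met 657. The odds ratio of isolated against clustered regions was 0.260 (exact interval 0.240 to 0.282). It was under 1 on all 19 chromosomes, each with an interval below 1, and ranged from 0.183 on chromosome 8 to 0.352 on chromosome 3. Among regions with no number missing to either neighbour, a choice made after the data were seen, 22 of 1131 isolated ones overlapped a P12 peak (1.95%, 1.22 to 2.93). That interval holds the 2.83% of all members. The odds ratio was 0.115 (0.0716 to 0.175). It was taken against the 31352 clustered regions that met the same choice, so its reference group differs from that of the 0.260. Over the chromosomes the share of all isolated regions varied from 2.22% on chromosome 14 to 3.99% on chromosome 5.

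At P18 the isolated regions were again overlapped less often. A P18 peak overlapped 131 of them (0.564%, 0.472 to 0.669), against 1.77% of all autosomal common regions and 1.96% (1.89 to 2.03) of clustered ones. The odds ratio was 0.284 (0.236 to 0.339). H3K27ac was mapped at P12 alone, so this sets BRG1 at P18 on acetylation at P12. Nearly all the isolated regions with BRG1 at P18 had it at P12 too, 128 of 131. The same held for the whole list, with 2921 of the 2956 autosomal common regions that overlapped a P18 peak. The 3 isolated regions with a P18 peak alone lay at chr12:104137399-104137754, at chr11:21471484-21471807 and at chr13:67005501-67006212. Their P18 peaks had a −log10 q, the authors' measure of peak strength, of 4.14, 2.61 and 1.91. The nearest P12 peaks were 20.4, 200 and 27.5 kb away. Among regions with a P12 peak, 19.5% of isolated (16.5 to 22.7) and 19.3% of clustered ones (18.6 to 19.9) had a P18 peak as well, with an odds ratio of 1.01 (0.826 to 1.24) that does not separate them.

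The difference was also present among regions of similar width. A wider region meets a peak more easily, and isolated regions were narrower. When all autosomal regions were split by width into 10 bins of equal size, isolated regions had the lower P12 share in each. In the third bin, 212 to 229 bp, 35 of 3279 isolated regions overlapped a P12 peak (1.07%, 0.745 to 1.48), against 5.23% (4.86 to 5.62) of clustered ones. In the widest bin, 520 bp and more, 151 of 1045 did (14.4%, 12.4 to 16.7), against 27.8% (27.1 to 28.5). The odds ratios of the bins ran from 0.184 to 0.440, and each interval lay below 1. Pooled over the bins, the Mantel-Haenszel odds ratio was 0.329 (0.303 to 0.356) at P12 and 0.417 (0.350 to 0.498) at P18.

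**Figure D3:**
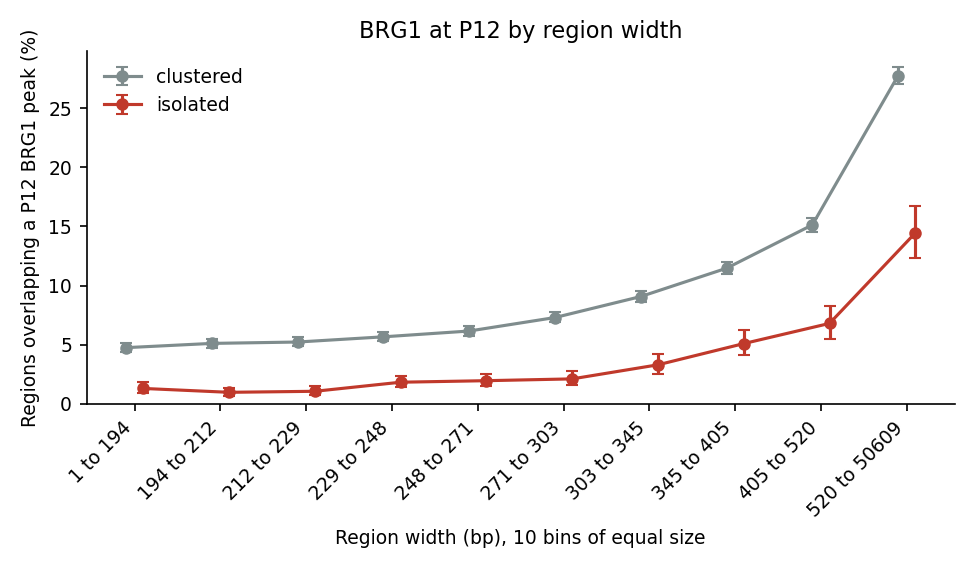
Percentage of isolated (red) and clustered (grey) regions that overlapped a P12 BRG1 peak, in 10 width bins of equal size, with exact 95% intervals as bars. Both curves are highest in the widest bin, and the red one stays below throughout, ending at 14.4% against 27.8% in the widest bin.

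The contrast was greatest against clustered regions with a very close neighbour. Such neighbours can overlap the same BRG1 peak, and each of them then counts. How much of the contrast comes from this was not tested. BRG1 overlap fell steeply with the gap up to about 1 kb and slowly after that. At P12 it was 22.6% (21.9 to 23.2) for regions with a neighbour within 0.2 kb, 10.4% at 0.5 to 1 kb, and 4.17% (3.90 to 4.46) at 5 to 10 kb. Among isolated regions it was 3.48% (3.16 to 3.81) at 10 to 20 kb, 2.46% (2.12 to 2.84) at 20 to 50 kb, 1.42% (0.957 to 2.01) at 50 to 100 kb and 0.641% (0.258 to 1.32) beyond 100 kb. The decline thus ran across 10 kb from one bin to the next. Median width also fell, from 303 bp at 0.2 to 0.5 kb to 234 bp beyond 100 kb. With each bin weighted to the width distribution of all regions, the P12 shares were 5.91% at 1 to 2 kb, 4.76% at 5 to 10 kb, 4.37% at 10 to 20 kb and 2.47% at 50 to 100 kb.

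At P18 the width-weighted shares hardly changed between 1 and 50 kb. They were 0.915% at 1 to 2 kb, 0.936% at 5 to 10 kb, 0.958% at 10 to 20 kb and 0.880% at 20 to 50 kb, after 4.81% in the closest bin. Against the 84045 clustered regions with a gap of more than 1 kb, a choice made after these values were seen, the odds ratio within width bins was 0.675 (0.620 to 0.734) at P12 and 0.964 (0.798 to 1.17) at P18. At P18 isolated regions were thus not shown to differ from moderately spaced regions of their own width.

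**Figure D4:**
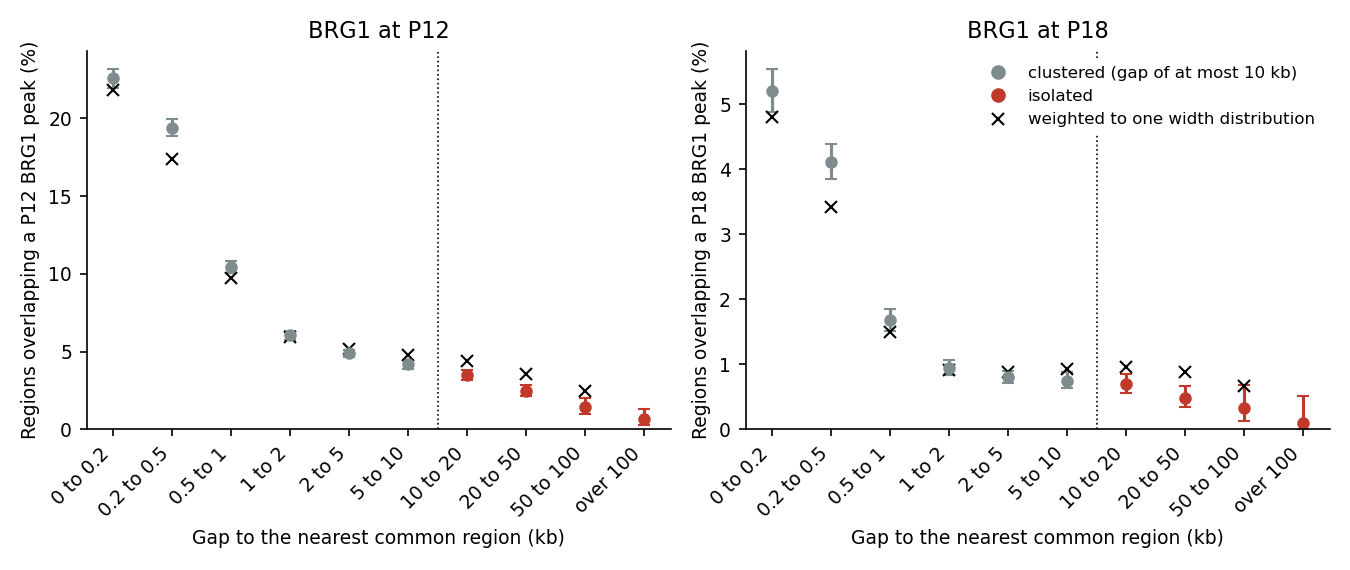
Percentage of common H3K27ac regions overlapping a BRG1 peak at P12 (left) and P18 (right), by gap to the nearest common region, with exact 95% intervals. Grey points are clustered and red points isolated regions, and crosses are the shares weighted to one width distribution (left out beyond 100 kb, where a width bin held 17 regions); the P12 share drops from 22.6% to 0.641%, across the dotted 10 kb line.

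The same gradient appeared when regions were joined into domains at gaps of at most 10 kb. An isolated region is a domain of 1. In domains of 2 regions 5.82% of regions overlapped a P12 peak (5.48 to 6.18), in those of 3 to 5 it was 8.38%, and in those of more than 20 it was 13.5% (13.1 to 13.8). Counted by domain, 2.83% of the isolated regions and 9.44% (8.84 to 10.1) of the 8873 domains of 2 held a BRG1-bearing region.

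BRG1 was rare around isolated regions as well as on them, which the rule itself favours. It keeps every other common region more than 10 kb from a member, and 58.8% of autosomal P12 peaks lay on a common region. How much of the distance to BRG1 comes from this was not tested. Another 177 members (0.762%) had a P12 peak within 1 kb without overlap, and 1114 (4.80%) within 10 kb. For all autosomal common regions these shares were 4.86% and 27.5%, and for clustered ones 5.52% and 31.1%. For 48.6% of members no P12 peak lay within 100 kb, against 11.8% of clustered regions. Members without BRG1 on them lay a median of 99.9 kb (97.4 to 102) from the nearest P12 peak, and clustered regions without BRG1 lay 19.2 kb from one. All P12 peaks together covered 0.733% of the autosomal span, and 2.56% of the isolated regions (2.36 to 2.77) had their centre inside a peak. The corresponding share for clustered regions was 8.49% (8.35 to 8.63).

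Among members, those in BRG1-rich neighbourhoods carried BRG1 more often. These shares were computed for members only, so whether the trend is particular to them was not tested. Among the 11521 isolated regions with no other P12 peak within 100 kb, 1.80% (1.56 to 2.06) overlapped a peak. The share was 3.47% with 1 other peak, 3.50% (2.98 to 4.09) with 2 or 3, and 5.77% (4.75 to 6.92) with 4 or more. So 207 of the 657 isolated BRG1 sites had no second P12 peak within 100 kb on either side.

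The 657 members with BRG1 at P12 were wider and slightly less remote than the others. Their median width was 348 bp (328 to 367), against 244 bp (243 to 245) for members without a P12 peak, and 26.2% of them reached 500 bp, against 4.68%. The 128 with a P18 peak as well were wider still, with a median of 408 bp (355 to 495). A wider region meets a peak more easily, so width and overlap are not independent here. The median nearer gap was 15.6 kb (14.9 to 16.5) with a P12 peak and 18.6 kb (18.4 to 18.8) without.

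Each of the 657 members met a single P12 peak, and none of those peaks reached another common region. The acetylated region was usually the smaller partner. In 339 of the pairs (51.6%, 47.7 to 55.5) it lay wholly inside the BRG1 peak, in 43 the peak lay wholly inside the region, and in 275 they overlapped in part. The centres were a median of 146.5 bp apart (134 to 165), and 90.6% (88.1 to 92.7) of the members had their centre in the peak. For clustered regions under a peak that met just 1 region, these values were 155.5 bp (150 to 161) and 83.5% (82.6 to 84.4). A median of 41.5% (38.4 to 44.6) of the peak length was acetylated, against 47.2% (46.2 to 48.2) for those peaks.

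The BRG1 peaks on isolated regions were among the stronger ones in the P12 list. Strength is the deposited −log10 q, which is higher for a more certain peak. Its median was 5.32 (5.04 to 5.61) for the 657 peaks on isolated regions, 4.86 (4.80 to 4.92) for the 10132 on clustered regions and 3.22 (3.18 to 3.26) for the 7547 on no common region. In the strongest of 10 bins of strength, 120 of the 657 peaks were found (18.3%, 15.4 to 21.4), against 14.7% (14.1 to 15.4) of those on clustered regions, an odds ratio of 1.29 (1.04 to 1.59). Peaks on exactly 1 clustered region had a median of 4.45 (4.38 to 4.54), and 12.8% of them were in the strongest bin. Against these the odds ratio for peaks on isolated regions was 1.53 (1.23 to 1.89). Peaks shared by 2 or more clustered regions were stronger than those on isolated regions, with a median of 5.63 (5.52 to 5.72). The peaks on isolated regions spanned a median of 817 bp (729 to 873). Peaks on exactly 1 clustered region spanned 762 bp (747 to 778), and all peaks on clustered regions, with those that reach several, 974 bp (958 to 988). Of the 657 peaks, 58 (8.83%) fell in the 2 weakest bins. That share was 13.6% for peaks on clustered regions, 17.9% for those on exactly 1 of them and 4.74% for those on 2 or more. For peaks on no common region it was 29.6%.

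Peaks near but not on an isolated region were weaker than those on one. The 1230 P12 peaks that met no common region and lay within 10 kb of an isolated one had a median −log10 q of 3.43 (3.30 to 3.54), close to the 3.22 of all peaks on no common region. Of these, 4.96% (3.81 to 6.33) were found at P18, against 22.4% of the peaks on isolated regions.

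The next comparison asked whether BRG1 on isolated regions was also found at P18. Of the 657 peaks, 147 overlapped a P18 peak (22.4%, 19.2 to 25.8). For all P12 peaks on common regions the share was 23.6%, for those on clustered regions 23.7% (22.9 to 24.6), and for those on no common region 4.74% (4.27 to 5.25). Against clustered regions the odds ratio was 0.927 (0.762 to 1.12), an interval that holds 1. In 19 of the 147 cases the P18 peak met the P12 peak but not the acetylated region.

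**Figure D5:**
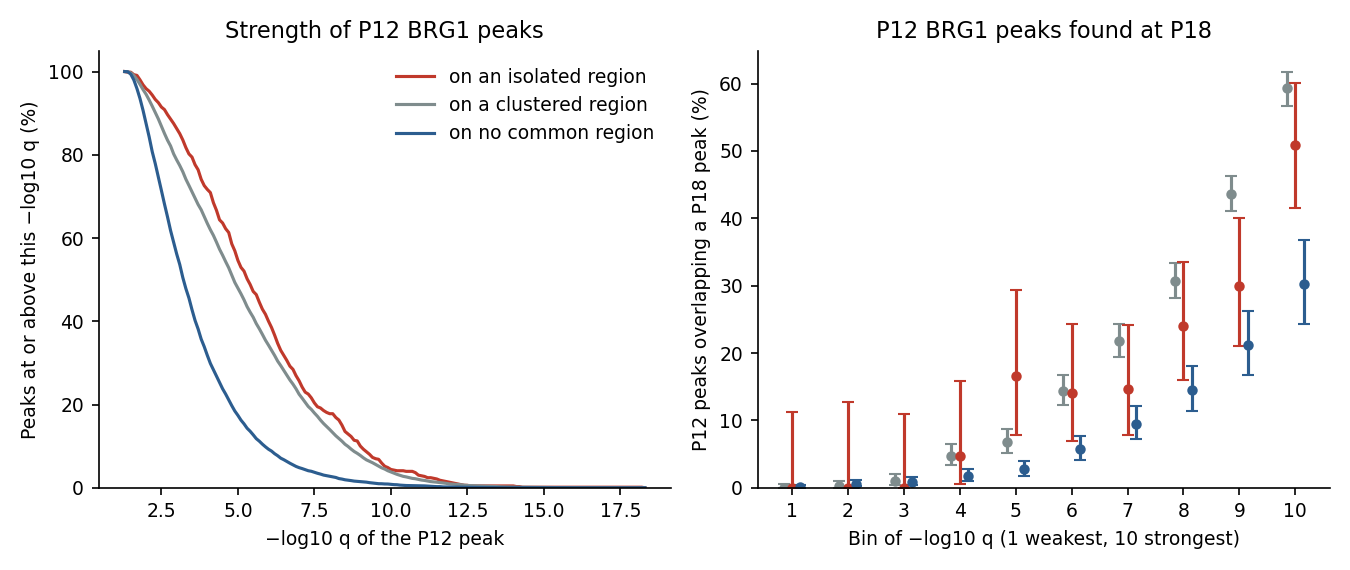
P12 BRG1 peaks on isolated regions (red), on clustered regions (grey) and on no common region (blue). The left panel gives the percentage of peaks at or above each −log10 q, and the right panel the percentage found at P18 in 10 bins of −log10 q with exact 95% intervals; red lies to the right of grey on the left, and in the strongest bin red is at 50.8% and grey at 59.3%.

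Pooled over bins of strength, peaks on isolated regions were found at P18 less often than peaks on clustered ones. Within bins of strength the Mantel-Haenszel odds ratio was 0.732 (0.596 to 0.901). In the strongest bin 61 of 120 peaks on isolated regions were found (50.8%, 41.6 to 60.1), against 59.3% (56.7 to 61.8) on clustered regions. In the bin below, 29 of 97 (29.9%) stood against 43.6% (41.1 to 46.3). In bin 5 the order was the other way round, with 16.7% (7.92 to 29.3) of 54 peaks on isolated and 6.83% (5.24 to 8.72) on clustered regions. Of the 90 peaks on isolated regions in the 3 weakest bins none was found at P18. The other groups were also low there. From the weakest bin up, the shares were 0%, 0.282% and 1.06% on clustered regions. On no common region they were 0.0881%, 0.546% and 0.863%. A clustered region can share its BRG1 peak with others, and peaks on 2 or more regions had a median width of 1456.5 bp. Within most bins of strength the peaks on isolated regions were the narrower ones. Their widths were 720 against 1149 bp in the strongest bin and 905 against 1134 bp in the bin below. In bins 2 and 3 they were the wider ones. A wider peak meets a P18 peak more easily, and how much of the difference comes from this was not tested. When only the 6838 peaks on exactly 1 clustered region served for comparison, the odds ratio was 1.36 (1.11 to 1.66), and within bins of strength 0.987 (0.799 to 1.22). This comparison was added after the data had been seen. Against peaks on no common region the odds ratio within bins of strength was 2.10 (1.66 to 2.65).

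From the side of P18, 131 of the 3020 peaks (4.34%) lay on an isolated region. Their median −log10 q was 2.56 (2.28 to 2.81), against 2.46 (2.42 to 2.49) on clustered regions, and their median width 393 bp (337 to 461) against 481 bp (462 to 497). Of these, 97.7% (93.5 to 99.5) overlapped a P12 peak, against 97.8% (97.3 to 98.3) of all autosomal P18 peaks.

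The strongest autosomal P12 peak of the list lay on an isolated region. That region was at chr8:77517957-77518299, 343 bp wide, with gaps of 59.1 and 15.9 kb. Its P12 peak had a −log10 q of 18.2 and its P18 peak one of 3.69. The next strongest isolated sites with BRG1 at both ages were at chr5:28643486-28644136 (14.2 at P12 and 2.59 at P18) and at chr3:103772342-103772886 (12.5 and 2.06). The last ones of these 5 were at chr2:59720271-59720625 (12.4 and 2.06) and at chr10:66589329-66590124 (12.04 and 3.19). The widths of the 5 regions ran from 343 to 796 bp, and each peak at P12 was wider than its region, at 373 to 1129 bp.

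Other isolated sites had a strong P12 peak and no peak of the shorter and weaker P18 list on them. First among these by −log10 q came chr13:24852808-24853316 (12.2), and then chr8:23763604-23763833 (12.1), chr9:13553495-13554075 (11.7), chr12:10397837-10398050 (11.6) and chr1:89652755-89652975 (11.5). These regions were 214 to 581 bp wide, with peaks of 491 to 784 bp. The first 2 of these peaks were stronger than the weakest of the 5 named with BRG1 at both ages, and the other 3 were weaker. The nearest P18 peak was 40.2 to 1065 kb away.

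The last comparison concerned the deposited lists of H3K27ac gained and lost in Brg1cKO. Members are by definition common to both genotypes, also the 657 that carry BRG1 in wild type cells, and no member overlapped a gained or lost region. Both classes come from the same libraries as the rule, so their distances are given without a test. A gained region lay within 10 kb of 204 members (0.879%, 0.763 to 1.01) and of 1.34% (1.28 to 1.40) of clustered regions. A lost region lay within 10 kb of 164 members (0.706%, 0.603 to 0.823) and of 1.25% (1.20 to 1.31) of clustered regions. In all, 366 members had a changed region of either kind within 10 kb, and 17 of them carried a P12 peak (4.64%, 2.73 to 7.33), against 2.83% of all members.

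Seen from the changed regions, an isolated region was the nearest common one for 332 of the 955 autosomal gained regions (34.8%, 31.7 to 37.9) and for 233 of the 768 lost regions (30.3%, 27.1 to 33.7). Among gained and lost regions within 10 kb of a common region, 173 of 692 gained and 143 of 627 lost regions (22.8%) had an isolated one nearest. Isolated regions have long gaps around them, so they are the nearest common region for 55.2% of the autosomal bases between common regions, and for 35.4% of those within 10 kb of one. Each of the shares for gained and lost regions lay below these. The bases counted include stretches where no region could have been called.

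A changed region within 1 kb was found at 45 members, 20 for gained and 25 for lost regions. The nearest pair with a gained region was at chr14:27158244-27158577, 63 bp from it. It was followed by chr7:144265009-144265224 (75 bp), chr5:43493616-43493977 (76 bp), chr5:34301646-34301789 and chr2:154113538-154113811 (228 bp). None of these 5 carried BRG1, and the nearest P12 peak was at least 22.3 kb away.

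Lost regions gave the member at chr3:75360139-75360481, which lay 19 bp from one. It is the only one of the 10 members named here beside a changed region that carried BRG1. A P12 peak of 943 bp with a −log10 q of 6.46 covered part of it, and its P18 peak had a −log10 q of 2.21. The other 4 lay at chr14:8462222-8462439, at chr1:75729891-75730140, at chr2:122013140-122013369 and at chr7:77574386-77574662, between 45 and 98 bp from a lost region. The nearest P12 peaks were 39.0 to 186 kb from them. Among all 45 members, 5 carried a P12 peak (11.1%, 3.71 to 24.1). The share over all members was 2.83%, and it was 11.1% (8.05 to 14.7) for the 371 clustered regions with a changed region within 1 kb.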

How the data were processed

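The lists were deposited by the authors as regions in build mm9. Per the submitters' processing notes, MACS2, deepTools 2.5.2, Picard, SAMtools, Bowtie2 and Bowtie were used, without a stated role. The deposited −log10 q of BRG1 peaks was used as the authors' peak caller wrote it. The deposited score columns, and 2 other BRG1 columns with no interpretable scale, were used for no result. Coordinates are counted from 1. H2AK119ub1 and input libraries were not analysed here.

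Gaps run from edge to edge, and overlap means at least 1 bp. Shares carry exact Clopper-Pearson 95% intervals, and medians order-statistic intervals. Odds ratios are conditional with exact intervals, or Mantel-Haenszel over 10 bins of equal size (SciPy 1.17.1, statsmodels 0.14.6, Python 3.11.15). No p-value was computed, since regions are not replicates. The code was tested on simulated data. Isolated and clustered regions were the groups compared, and alternatives changed gap, overlap, threshold, width, comparison group and chromosomes. Named regions are the first 5 by strength (with P18, without P18), width, width without BRG1, gap, and distance to gained or lost regions, and 3 on each side of the threshold. The 3 members with a P18 peak alone and the longest runs were named after their values were seen. Members, lists and comparisons were chosen with earlier results of these data known. A sequence analysis was planned for mm9 and not run, because neither the genome sequence nor the gene positions of that build were supplied.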

Additional observations from a re-analysis of the deposited data

How the results depend on the processing

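The P12 odds ratios of isolated against clustered regions stayed below 1, interval included, under every alternative run (0.115 to 0.542, and 0.160 to 0.675 within width bins). The P18 odds ratio did so (0.117 to 0.673) except against clustered regions with a gap of more than 1 kb within width bins, 0.964, where it no longer excluded 1. Leaving out each of the 19 chromosomes changed no direction or call of the 4 odds ratios. With gaps of more than 5, 20 and 50 kb the number of members was 43683, 10648 and 3212, and their P12 share 3.46%, 2.07% and 1.15%. With no number missing to either neighbour they were 1131 and 1.95%. The P12 share was 2.56% with the region's centre in the peak, 2.52% with at least 50% of the region covered, 2.44% at a −log10 q of at least 3 and 3.05% in regions of at least 200 bp. The odds ratio of being found at P18 (main value 0.927) was 0.865 at gaps of more than 5 kb and 0.732 within bins of strength, both past the threshold. It rose above 1 at gaps of more than 50 kb (1.04, 0.431 to 2.27) and at a −log10 q of at least 3 (1.28, 0.920 to 1.74). Against clustered regions with a gap of more than 1 kb it was 1.21 (0.982 to 1.48). These intervals hold 1. Only against peaks on exactly 1 clustered region did the interval lie above 1 (1.36, 1.11 to 1.66). The cause was not tested. Alternatives on missing numbers, gaps of more than 1 kb, peaks on 1 region and P18 width bins were chosen after seeing the data. No paired analysis was possible because each list stands for both libraries of its groups together. Leaving out a replicate was not possible for the same reason. Across the alternatives 158 values were computed. Of these, 139 changed neither direction nor call, but among them are odds ratios that moved well past their main interval, as the ranges above show.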
